A study of Homo sapiens with 2 samples.

Results

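Condensin is a ring-shaped protein complex that folds chromosomes, and the transcripts of its 8 subunit genes, SMC2, SMC4, NCAPD2, NCAPG, NCAPH, NCAPD3, NCAPG2 and NCAPH2, were examined here. The genes were chosen by symbol, and all 8 were found among the 57820 genes of the count table. The material was total RNA of T47D, an established human breast cancer line of luminal, estrogen receptor-positive type, whose cells carried ESR1 Y537S, a change in the ligand-binding domain that keeps the estrogen receptor active without hormone. Seeding was in hormone-deprived medium, followed by 25 nM control siRNA. Both libraries described belong to this 1 group (41370662 reads on genes in replicate 1 and 37198274 in replicate 2), so no condition was compared with another, and the levels describe this control state. Neither the clonality of the line nor the origin of the replicates (separate cultures or not) is given. The p-values set the difference between these libraries against counting error only, and that difference may be technical.

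Luminal markers matched the label. All 7 luminal genes were detected, between 23.5 TPM for ESR1 and 1385 TPM for KRT19 on average, while VIM, COL1A2, KRT5 and KRT14 had at most 6 reads in a library, and PDGFRB, CD3E and CDH5 had none. TP63 had 61 and 30 reads and did not reach 1 CPM in both libraries. PTPRC and VWF had no read in replicate 1 and 17 and 12 reads in replicate 2. TPM is a read count scaled to the summed exon length of a gene and to the library, and CPM is a read count scaled to the library alone. Levels of different genes are compared in TPM.

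All forms of condensin share SMC2 and SMC4, a pair of long coiled-coil ATPases that join at a hinge. A kleisin subunit closes the ring between their heads and carries a pair of HEAT-repeat subunits. Condensin I uses the kleisin NCAPH with NCAPD2 and NCAPG, and condensin II uses the kleisin NCAPH2 with NCAPD3 and NCAPG2. Condensin I is largely cytoplasmic until the nuclear envelope breaks down, whereas condensin II is nuclear through interphase. Both extrude DNA loops and compact chromosomes in mitosis.

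Promoter letters are shown first, as a feature that the choice of genes did not use. In all, 4 sets of letters were searched, picked after the promoter sequences and levels had been looked at: both forms of the CHR, the CCAAT box and a pair of E2F-type sites. RefSeq (GRCh38.p14) windows, from 250 bases before to 50 bases after a transcript start, were found for 7 of the 8 genes, 10 windows in all; NCAPH2 had no entry. Letters of the CHR, the cell cycle genes homology region, were searched as TTTGAA on either strand and as TTTAAA, which reads the same on both. The CHR is bound by the MuvB core of the complexes that repress and activate genes of late cell cycle. All 7 genes with a window held these letters at least once, 6 as TTTGAA and NCAPH as TTTAAA. Of all 27305 genes with a window, 27.9% held either form and 18.2% held TTTGAA. A gene with more windows has more chances to match. Counted by window, 7 of the 10 windows (70%) held either form, against 24% of all 35116 windows. The 30 bases around each match are shown on the gene strand, with the match in capitals; a match on the other strand reads TTCAAA.
SMC2: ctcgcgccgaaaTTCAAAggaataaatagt
SMC4: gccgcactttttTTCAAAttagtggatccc
NCAPD2: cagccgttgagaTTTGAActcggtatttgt
NCAPG: tcgcgggaattaTTTGAAcgttcgagcggt
NCAPH: cgacgcgcgcgaTTTAAAaccagctcagga
NCAPD3: gcgggagcgagcTTTGAAagttgagcacgg
NCAPG2: gcgccggcgggtgcgTTTGAAtctggtccg

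The matches of SMC2 (chr9:104094294-104094323, plus strand) and NCAPD3 (chr11:134223953-134223982, minus strand) straddled the annotated start. In NCAPG (chr4:17810932-17810961, plus strand) the match began 35 bases before the start, in SMC4 (chr3:160399563-160399592, plus strand) 75 bases and in NCAPD2 (chr12:6493945-6493974, plus strand) 145 bases before it. In NCAPH (chr2:96335786-96335815, plus strand) it began at base 33 and in NCAPG2 (chr7:158704755-158704784, minus strand) at base 36 of the transcript. The alternative windows of SMC2, SMC4 and NCAPD3 held no such letters. Among related genes, 7 of 9 mitotic chromosome factors with a window held either form, as did 5 of 9 condensin regulators, 1 of 4 cohesin subunit genes, 1 of 10 S-phase genes and none of 5 SMC5/6 genes. Either form was held by 3 of 9 cohesin loading, release and acetylation genes and by none of 4 germline SMC and kleisin genes. A match of 6 letters describes the sequence and is not a measured binding site.

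CCAAT, the letters bound by NF-Y, was searched on both strands. It was present in NCAPD2, NCAPD3 and NCAPH, 3 of the 7 genes, against 39.7% of all genes with a window and 8 of 9 condensin regulators. Of the other lists, it was present in 8 of 9 mitotic chromosome factors, 7 of 10 S-phase genes and 6 of 9 cohesin loading, release and acetylation genes. It was also present in 2 of 4 cohesin subunit genes, 2 of 5 SMC5/6 genes and 2 of 4 germline SMC and kleisin genes. The 250 bases before the start are shown for NCAPD2 and for the NCAPD3 start nearest its CHR match, because these paralogs turned out to be the lowest and the highest member by level. E2F-type letters, searched as TTTCCCGC and as TTTGGCGC on either strand, were present in 1 of the 7 genes, NCAPD3, against 2.75% of all genes, in 8 of 10 S-phase genes and in 3 of 4 cohesin subunit genes; in NCAPD3 they lie on the other strand, from the second base shown. Capitals mark ATTGG, which is CCAAT read from the other strand, and TTTGAA; the NCAPD3 match crosses the start and so runs past the bases shown. NCAPD2 (chr12:6493852-6494101, plus strand) held 4 such CCAAT boxes and NCAPD3 (chr11:134223968-134224217, minus strand) held 2.
NCAPD2: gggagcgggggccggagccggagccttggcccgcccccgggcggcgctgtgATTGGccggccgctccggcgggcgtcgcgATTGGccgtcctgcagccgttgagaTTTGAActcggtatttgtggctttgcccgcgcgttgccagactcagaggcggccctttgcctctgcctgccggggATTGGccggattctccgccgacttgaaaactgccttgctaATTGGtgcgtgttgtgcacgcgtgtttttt
NCAPD3: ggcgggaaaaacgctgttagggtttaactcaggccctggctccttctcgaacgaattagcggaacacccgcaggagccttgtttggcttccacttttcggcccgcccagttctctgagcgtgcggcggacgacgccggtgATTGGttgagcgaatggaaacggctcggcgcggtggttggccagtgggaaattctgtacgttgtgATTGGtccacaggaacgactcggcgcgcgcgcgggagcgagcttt

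All 8 condensin genes were detected, each with a mean above the median of detected nuclear protein-coding genes. Each reached 1 CPM in both libraries, the threshold for detection, which 24.5% of all genes and 60.9% of nuclear protein-coding genes reached. The median of the 8 was 31.5 ± 5.1 TPM (SD of the 2 libraries' medians), beside 9.25 ± 0.907 TPM for the 11718 detected nuclear protein-coding genes. By mean TPM the members ranked from 723 (NCAPD3) to 3464 (NCAPD2) among 19250 nuclear protein-coding genes. Replicate 1 was higher than replicate 2 for every member on the TPM scale, on which nuclear protein-coding genes held 29.8% of the total in replicate 1 and 26.4% in replicate 2. Error ranges in parentheses are exact Poisson 95% intervals, which cover counting error only.

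The shared ATPase subunits had nearly the same level on the TPM scale. SMC2 (ENSG00000136824.14, hg19 chromosome 9, 106856541 to 106903698) had 60 TPM in replicate 1 (58.8 to 61.2) and 44.4 in replicate 2 (43.4 to 45.4). SMC4 (ENSG00000113810.11, chromosome 3, 160117062 to 160152750) had 64.3 TPM in replicate 1 (63.2 to 65.3) and 46.0 in replicate 2 (45.1 to 46.9). Counting intervals of the libraries did not overlap for either gene, so the spread between libraries exceeded counting error. The log2 ratio of SMC2 to SMC4 was -0.075 ± 0.034 (SD, n = 2), within the replicate spread. That spread is the 95th percentile of the absolute log2 difference between the libraries among genes as abundant as the lower partner, 0.28 here. SMC4 shared 2168 of its 8457 exon bases (25.6%) with TRIM59 and IFT80 on the opposite strand, whose ambiguous reads the counter leaves out by default. Over unshared exon bases the log2 ratio of SMC2 to SMC4 was -0.50 and with the longest coding transcript -0.59, both past the spread, so the near-equality of the pair holds on the deposited exon lengths only.

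By mean TPM, condensin I had the lowest pair of subunits, NCAPD2 and NCAPH, though NCAPH lay within the replicate spread of NCAPG2 of condensin II. In CPM the lowest pair was NCAPH (44.2) and NCAPH2 of condensin II (71.3). NCAPD2 (ENSG00000010292.8, chromosome 12, 6602522 to 6641121), the HEAT-repeat subunit near the SMC heads, had 20.4 TPM in replicate 1 and 16.4 TPM in replicate 2. The kleisin NCAPH (ENSG00000121152.5, chromosome 2, 97001525 to 97039583) had 21.6 and 18.4 TPM, a difference from NCAPD2 that lay within the replicate spread (log2 ratio of NCAPD2 to NCAPH -0.13 ± 0.057). The other HEAT-repeat subunit NCAPG (ENSG00000109805.5, chromosome 4, 17812525 to 17846485) stood above both, with 34.4 TPM in replicate 1 and 24.7 in replicate 2. NCAPG was 1.59-fold above NCAPD2 (in CPM the ratio was within the spread, with a log2 ratio of NCAPD2 to NCAPG of -0.27) and 1.46-fold above NCAPH. It shared 1631 of 4921 exon bases (33.1%) with LCORL on the opposite strand, the largest share among the 8 genes, and over unshared exon bases its mean was 43.1 in place of 29.5 TPM.

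Condensin II spanned the widest range, because NCAPD3 was the highest of all 8 genes. NCAPD3 (ENSG00000151503.8, chromosome 11, 134020014 to 134095348) had 77.5 TPM in replicate 1 (76.4 to 78.6) and 63.7 in replicate 2 (62.7 to 64.7), from 18681 and 15359 reads. The kleisin NCAPH2 (ENSG00000025770.14, chromosome 22, 50946645 to 50961901) had 35.9 and 31.1 TPM. NCAPG2 (ENSG00000146918.15, chromosome 7, 158424003 to 158497520), the HEAT-repeat counterpart of NCAPG, had 26.6 and 20.6 TPM. NCAPD3 was 2.1-fold above NCAPH2 and 3.0-fold above NCAPG2 (log2 ratios 1.07 ± 0.056 and 1.59 ± 0.062). It shared 810 of 9101 exon bases (8.9%) with JAM3, VPS26B and an antisense gene. NCAPH2 and NCAPG2 shared none.

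**Figure D1:**
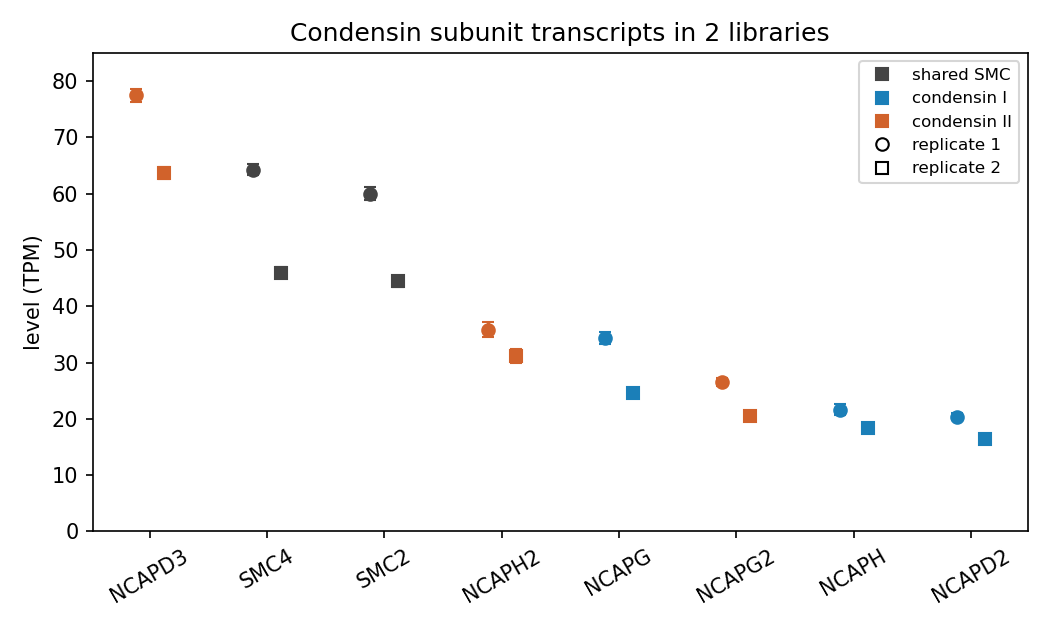
Level in TPM (vertical axis) of each condensin gene in replicate 1 (circles) and replicate 2 (squares), ordered by mean level and coloured by complex, with bars for the exact Poisson 95% counting interval. NCAPD3 lies highest, at 77.5 and 63.7 TPM, and NCAPD2 lowest, at 20.4 and 16.4 TPM.

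Between the paralogs of the complexes, the condensin II gene was higher for the first HEAT-repeat subunit and for the kleisin, and lower for the second HEAT-repeat subunit. NCAPD3 was 3.84-fold above NCAPD2 (log2 ratio of NCAPD2 to NCAPD3 -1.94 ± 0.021, n = 2), the widest ratio among the 28 pairs. NCAPH2 was 1.67-fold above NCAPH (log2 ratio of NCAPH to NCAPH2 -0.74 ± 0.02). NCAPG was 1.25-fold above NCAPG2 (log2 ratio 0.32 ± 0.077, against a spread of 0.29). On the exon lengths used, both HEAT-repeat pairs and the kleisin pair differed beyond counting error in each library. The NCAPD3 to NCAPD2 and NCAPH2 to NCAPH ratios kept their direction and passed the spread under all 6 alternatives tried, which were 4 other scales and either library alone. Among these scales, TPM scaled to nuclear protein-coding genes cannot change a ratio within a library, so it is no check of these ratios. The NCAPG to NCAPG2 ratio fell below the spread from replicate 2 alone (0.26), and its sign turned in CPM (-0.19) and with the length of the longest coding transcript (-0.017), whereas over unshared exon bases it was larger (0.90).

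Of the 28 pairs of members, 24 differed by more than the replicate spread. This spread covers differences between the libraries and not the choice of exon length or overlap with other genes, which moved some ratios past it. The 4 that did not were SMC2 with SMC4, NCAPH2 with NCAPG, NCAPG2 with NCAPH, and NCAPH with NCAPD2. In the order from high to low, NCAPD3 came first, 1.29-fold above SMC4 (log2 ratio of SMC4 to NCAPD3 -0.37 ± 0.14). This step was not past the spread over unshared exon bases (-0.076), nor from replicate 1 alone (-0.27). SMC4 and SMC2 followed, and SMC2 was 1.55-fold above NCAPH2, a step within the spread with the longest coding transcript (log2 ratio 0.13). NCAPH2 and NCAPG were not separated in TPM (log2 ratio of NCAPG to NCAPH2 -0.20 ± 0.20). Their ratio passed the spread from replicate 2 alone (-0.34) and with the longest coding transcript (-0.73), and their order turned over unshared exon bases (0.38) and in CPM (0.44). NCAPG lay above NCAPG2 as given above, and NCAPG2, NCAPH and NCAPD2 closed the order, each step within the spread in TPM. The step from NCAPG2 to NCAPH passed the spread with the longest coding transcript (log2 ratio of NCAPH to NCAPG2 -0.49) and in CPM (-1.32). NCAPG2 and NCAPD2 differed 1.28-fold, a ratio within the spread over unshared exon bases (log2 ratio of NCAPD2 to NCAPG2 -0.24).

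**Figure D2:**
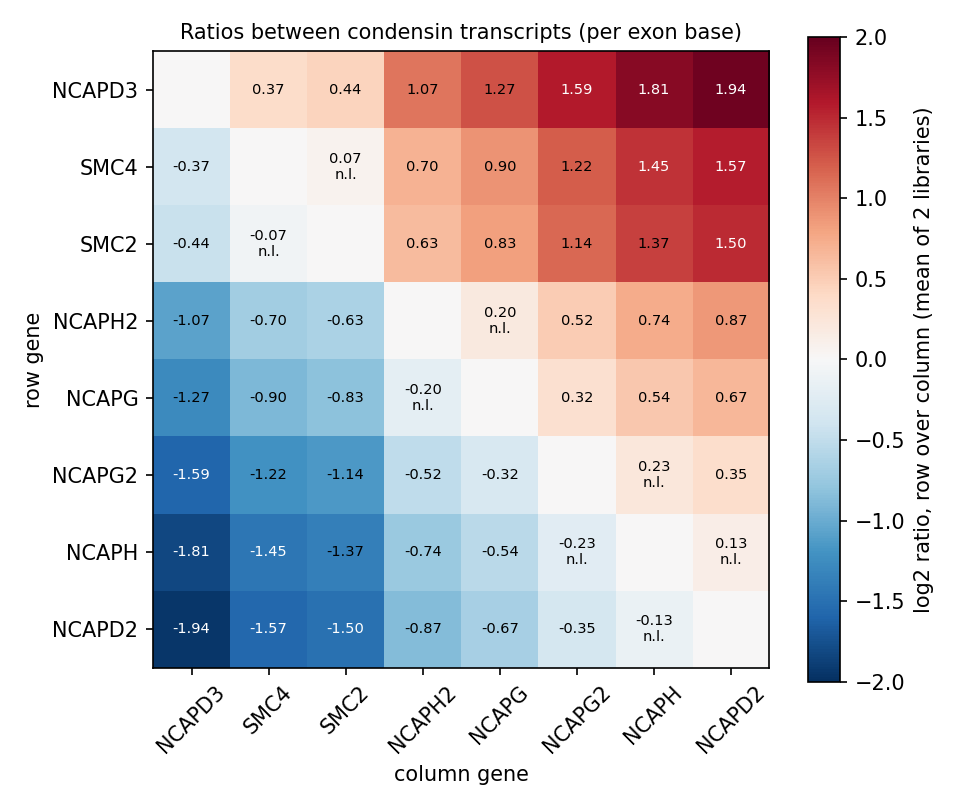
Log2 ratio of TPM of the row gene over the column gene, mean of 2 libraries, for the 28 pairs of condensin genes; red is higher in the row gene, and "n.l." marks a ratio not larger than the replicate spread. The NCAPD3 row is positive throughout, from 0.37 over SMC4 to 1.94 over NCAPD2.

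A sum over the complexes gave condensin II the larger transcript pool. The 3 subunits proper to condensin II summed to 139.9 TPM in replicate 1 and 115.3 in replicate 2, and those of condensin I to 76.4 and 59.5 TPM. The log2 ratio of the sums was 0.91 ± 0.058 (n = 2), or 1.89-fold. NCAPD3 alone made up 55.3% of the condensin II sum. Without the NCAPD2 and NCAPD3 pair, a comparison added after seeing the data, the log2 ratio was 0.21 (0.16 in replicate 1 and 0.26 in replicate 2). Most of the difference between the sums thus lay in this pair. The log2 ratio of this remainder was computed in TPM only, and the levels show that its direction depended on the scale. Over unshared exon bases NCAPG (43.1 TPM) and NCAPH (19.6) together stood above NCAPH2 (32.7) and NCAPG2 (23.0), the opposite direction. In CPM the condensin II genes NCAPG2 (110.7) and NCAPH2 (71.3) together stood above NCAPG (97.4) and NCAPH (44.2).

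Each condensin holds 1 subunit of every kind, so the paralogs were also summed by place; this sum was chosen after the values were seen. NCAPG and NCAPG2 together had 60.9 TPM in replicate 1 and 45.2 in replicate 2. NCAPH and NCAPH2 together had 57.5 and 49.5 TPM. These sums lay close to the levels of SMC2 (60 and 44.4 TPM) and SMC4 (64.3 and 46.0 TPM). The sum of NCAPD2 and NCAPD3, at 97.8 and 80.1 TPM, stood apart, 1.72 times the SMC2 level on average against 1.02 for the NCAPG pair, 1.04 for the NCAPH pair and 1.05 for SMC4. The closeness of the other places depended on the exon length used. Of the 4 scales computed, only TPM gave it. Over unshared exon bases the ratios to SMC2 were 1.42 for SMC4, 1.30 for the NCAPG pair and 1.04 for the NCAPH pair, with the longest coding transcript 1.51, 1.11 and 1.31, and in CPM 1.38, 0.919 and 0.514. The NCAPD2 and NCAPD3 sum was the highest on all 4 scales, with 1.88, 2.65 and 2.27 times the SMC2 level on these 3. Transcript sums are not protein amounts, which were not measured.

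**Figure D3:**
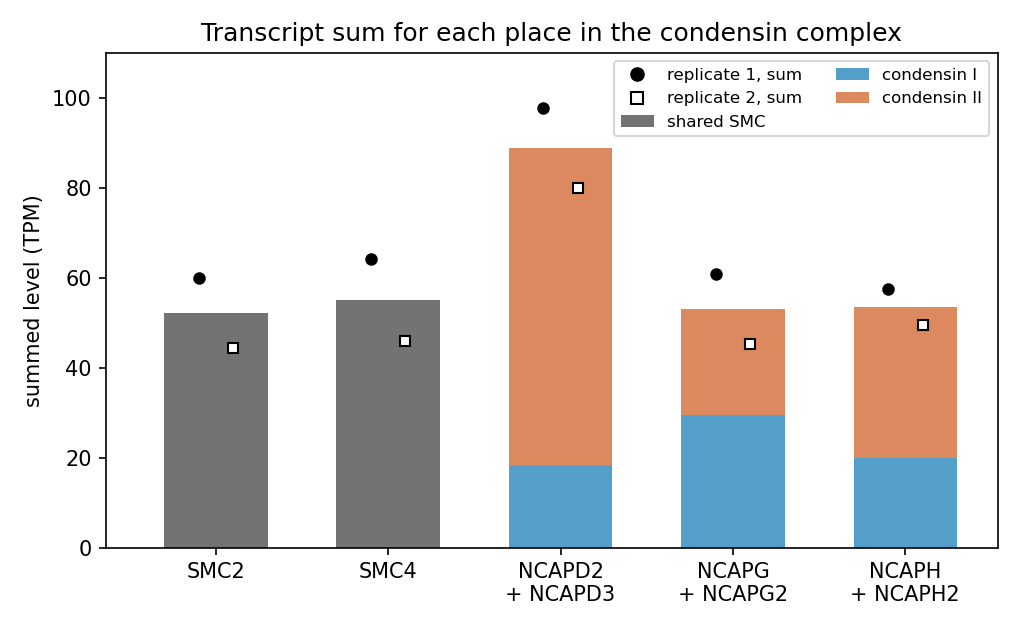
Summed TPM (vertical axis) of the paralogs that fill the same place in condensin, with SMC2 and SMC4 alone; bars are the mean of 2 libraries, stacked by complex, the circle is replicate 1 and the open square replicate 2. The NCAPD2 and NCAPD3 sum reaches 97.8 and 80.1 TPM, and the other places lie between 44.4 and 64.3 TPM.

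The libraries differed for most condensin genes, and always in the same direction. Each gene was tested between the libraries by a two-sided exact binomial test, using TMM-scaled library sizes and Benjamini-Hochberg adjustment over 14668 genes. This compares 2 libraries of the same condition, and counting error is its only error term, so many genes pass it. Of the 8 members 6 were called lower in replicate 2 and none higher. Of all genes tested, 39.5% were called in either direction, 20.6% lower and 18.9% higher. This share is not matched for level, since the genes tested start at a mean of 1 CPM and the members had 44.2 to 432 CPM. More reads make an equal difference easier to call. Among the members, SMC4 had the largest log2 difference (replicate 2 minus replicate 1), -0.31 (95% interval -0.34 to -0.27, binomial adjusted p = 8.58e-60). NCAPG followed with -0.30 (-0.37 to -0.24) and SMC2 with -0.26 (-0.30 to -0.22). NCAPG2 had -0.20, NCAPD2 -0.14 and NCAPD3 -0.11. The kleisins had the smallest differences and were not called, NCAPH with -0.058 (-0.15 to 0.039, binomial adjusted p = 0.374) and NCAPH2 with -0.029 (-0.10 to 0.047, binomial adjusted p = 0.594). SMC4 and NCAPG passed the 95th percentile of absolute differences of genes as abundant as they are (0.28 and 0.29), and the other 6 members lay within it.

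**Figure D4:**
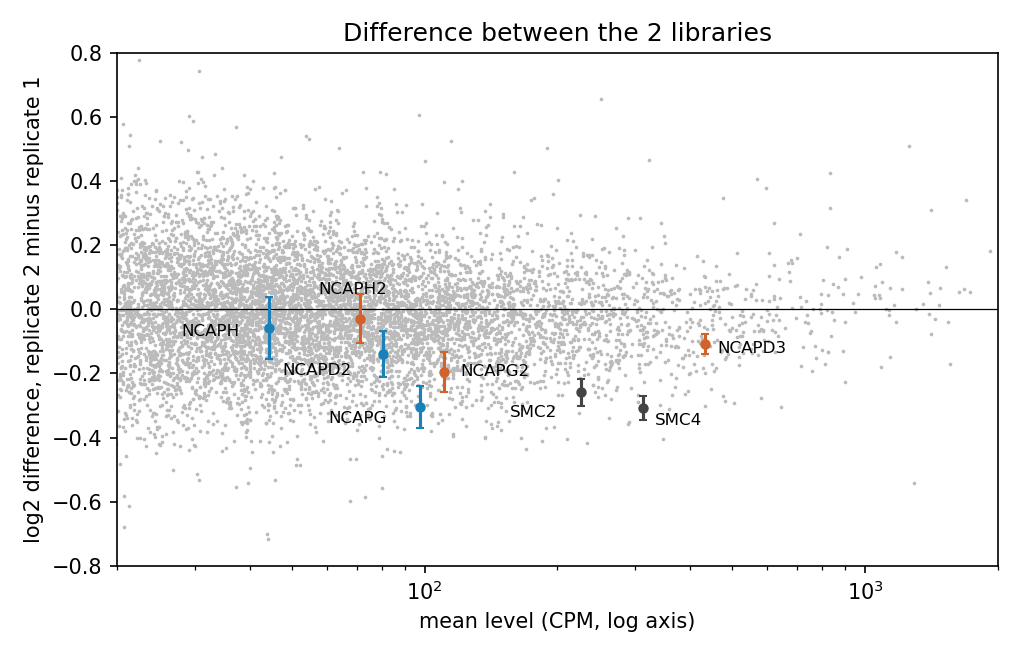
Log2 difference of replicate 2 minus replicate 1 after TMM scaling (vertical axis) against mean CPM (log axis) for tested genes in the range shown (grey) and the condensin genes (coloured by complex, with exact 95% counting intervals). All 8 condensin genes lie below 0, from -0.31 for SMC4 to -0.029 for NCAPH2.

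Calls among the related lists went mostly, but not in every list, toward lower values in replicate 2, and their part in the condensin differences was not tested. Of all genes tested, 20.6% were called lower and 18.9% higher, shares that are not matched for level. Among the 13 condensin regulators, 8 were called lower in replicate 2 and none higher. Of the 10 mitotic chromosome factors 7 were called lower, among them TOP2A (log2 difference -0.23), and HMGB2, named after its value was seen, was called higher (0.11). Of the 5 cohesin subunits 4 were called lower and none higher, and of the 11 genes of cohesin loading, release and acetylation 8 were called lower and 2 higher. Of the 12 S-phase genes 6 were called lower and 3 higher. The 6 SMC5/6 genes were split, with 2 called lower and 2 higher. The median log2 difference was -0.17 for the condensin genes, -0.098 for the regulators, -0.12 for the mitotic factors, -0.17 for the cohesin subunits, -0.16 for the cohesin loading list, -0.053 for the S-phase genes and -0.026 for the SMC5/6 genes, beside -0.002 for all genes tested.

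The genes that act on condensin were all detected. Highest were CCNB1 and CDK1. CCNB1, the cyclin that activates CDK1, had 212 TPM in replicate 1 and 178 in replicate 2. CDK1, which phosphorylates both condensins, had 116 and 91.8. Microcephalin, MCPH1, which inhibits condensin II, was the lowest of the 13 regulators with 8.07 and 6.45 TPM. The median of the regulators was 32.7 ± 4.03 TPM, close to that of the 8 condensin genes.

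Mitotic chromosome factors had a median of 67.2 ± 6.77 TPM. TOP2A, the decatenating topoisomerase of mitotic chromosomes, was the highest with 237 TPM in replicate 1 and 180 in replicate 2, and CENPE, a kinetochore motor, was the lowest with 25.8 and 17.4 TPM. TOP2A was 4.0-fold above SMC2 (log2 ratio 2.0 ± 0.023, n = 2), larger than the replicate spread.

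Condensin ATPases stood above those of cohesin, the related ring complex that holds sister chromatids. SMC2 was 1.51-fold above SMC3 (log2 ratio 0.60 ± 0.047) and SMC4 1.52-fold above SMC1A (0.61 ± 0.21), both larger than the replicate spread; in CPM the ratio of SMC4 to SMC1A (0.27) was not. The kleisins had the opposite order, with the cohesin kleisin RAD21 4.33-fold above NCAPH (log2 ratio of NCAPH to RAD21 -2.12 ± 0.15). NCAPH is the kleisin of condensin I only, whereas SMC2 and SMC4 serve both condensins. NCAPH and NCAPH2 together had 57.5 TPM in replicate 1 and 49.5 in replicate 2, below RAD21 but nearer to it. RAD21 was the highest cohesin subunit with 101 TPM in replicate 1 and 74.2 in replicate 2, and STAG1 the lowest with 21.5 and 17.3 TPM. The 5 cohesin subunits had a median of 34 ± 5.62 TPM.

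**Figure D5:**
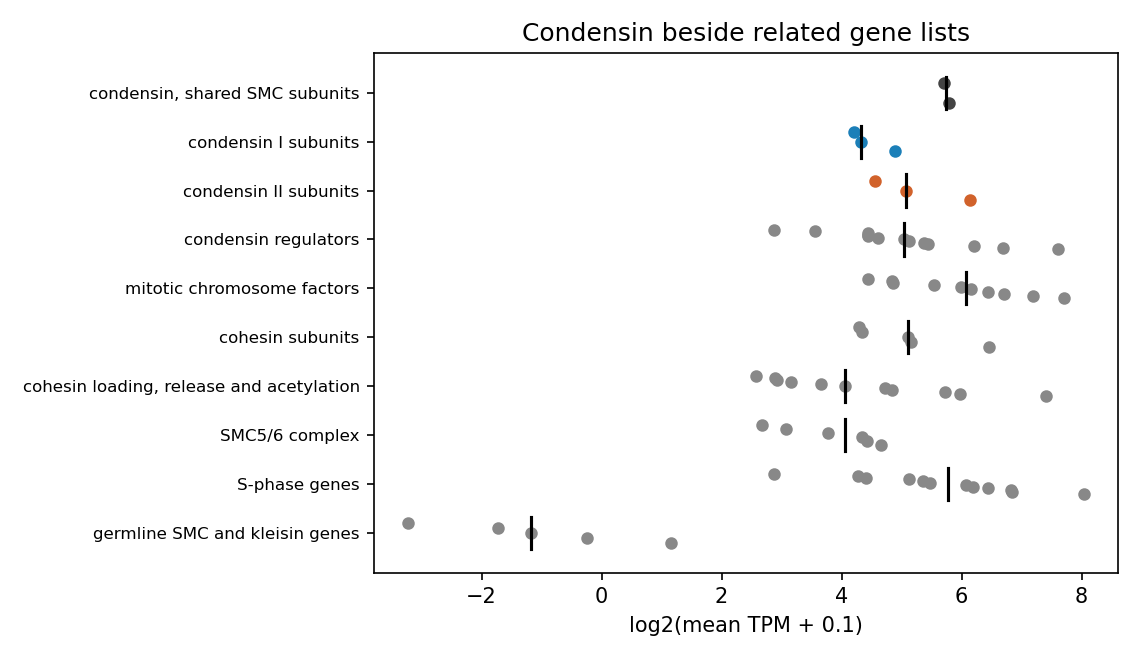
Log2(mean TPM + 0.1) of each gene (points) in the condensin groups and in related lists, with the list median as a black line. The median of the SMC pair lies above that of the condensin II subunits and of the condensin I subunits. Medians of log2 levels averaged over both libraries, which can differ slightly from the lines drawn, are 5.73, 5.07 and 4.33 in this order. NCAPD3 of condensin II is the highest single condensin gene.

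By level alone, near neighbours of the members were taken from the other lists over the 2 libraries. For SMC2 and SMC4 it was the cohesin release factor WAPL (59.4 and 46.3 TPM), and for NCAPD3 the cyclin gene CCNA2 (82.7 and 64.6 TPM). NCAPH2 lay nearest to INCENP, a subunit of the chromosomal passenger complex (35.5 and 29.8 TPM). NCAPD2 and NCAPH lay nearest to STAG1 and STAG2, and NCAPG to PDS5A. For these genes, root mean square differences were between 0.043 and 0.080 on the log2 scale. With 2 libraries this is a likeness in level and not a shared pattern.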

How the data were processed

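Libraries were made from total RNA with a stranded kit, per the labels' protocols. The authors' deposited whole-number counts are unnormalized; per the file headers, featureCounts 2.0.2 summed exons of GENCODE release 19 by gene, and the recorded call set no strand, paired-end, multimapping or overlap option. HISAT2 and hg19 (GRCh37) come from the submitters' processing notes. Column names give the line, the altered residue and the replicate number, but not the siRNA. Another 8 columns of per-sample values match no sample described here and were not used.

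CPM and TPM were computed from the deposited counts and exon lengths over 57820 genes. Symbols matched 89.9% of identifiers; gene types came from GENCODE release 29. Ratios within a library carry exact conditional binomial 95% intervals. A ratio was larger than the replicate spread when both intervals excluded 0 in 1 direction and its mean was above the spread, taken from the lower gene's class among 10 classes by CPM. TMM factors came from edgeR 4.0.16 and alternative size factors from DESeq2 1.42.0. The replicate test used genes with a mean of 1 CPM or more and was tested on simulated data. Those were Poisson counts, which hold counting error only, so they do not show how the test behaves at the spread of these libraries. The chi-square statistic of 22.8 per gene showed that the libraries differ beyond sampling noise. Named genes were all members, genes of the listed pairs, the highest and lowest detected and every undetected gene of each related list, and the nearest gene by level, which for NCAPG2 is not reported here. Members and lists were chosen with earlier results of these data known. The place sums, the longest-transcript scale, the sum without NCAPD2 and NCAPD3 and all 4 letter sets were added after the values were seen; every scale and letter set tried is reported. Reads lack molecular identifiers, so intervals cover counting error only.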

Additional observations from a re-analysis of the deposited data

How the results depend on the processing

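No paired analysis was possible because the labels give 1 group of 2 libraries. The median level of the 8 genes was 31.5 TPM. It was 111.6 when TPM was scaled to nuclear protein-coding genes, 104 in CPM and 37.9 over unshared exon bases. Between 23 and 25 of the 28 pairs were larger than the spread under each alternative. Scaling to nuclear protein-coding genes cannot change a ratio within a library, so its count had to equal that in TPM. In CPM, 5 pairs reversed, with log2 ratios of 0.86 for NCAPD2 to NCAPH, 0.17 for NCAPD2 to NCAPH2, -0.19 for NCAPG to NCAPG2, 0.44 for NCAPG to NCAPH2 and 0.63 for NCAPG2 to NCAPH2, since length is not divided out. Over unshared exon bases NCAPG to NCAPH2 reversed (0.38), and with the longest coding transcript, chosen after seeing the data, NCAPG to NCAPG2 did (-0.017). The log2 ratio of condensin II to condensin I sums was 1.47 in CPM, 0.68 over unshared bases and 1.49 with the longest coding transcript. Single libraries gave 0.87 and 0.96. Without NCAPD2 and NCAPD3 the ratio was 0.21 in TPM, the only scale on which it was computed. The levels over unshared exon bases put the remaining condensin I genes higher instead. The median log2 level was 6.69 in CPM, against 4.97 in TPM. With counts halved, in case both mates of a pair were counted, 3107 genes were called between the libraries in place of 5798; 6 members were called lower in each of the 4 alternatives.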

Other observations

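The third human SMC complex, SMC5/6, which acts in DNA repair, had lower transcript levels than the condensin ATPases. SMC2 was 3.82-fold above SMC5 (log2 ratio 1.93 ± 0.073, n = 2) and SMC4 6.58-fold above SMC6 (2.72 ± 0.083), both larger than the replicate spread. SMC5 had 15.1 TPM in replicate 1 and 12 in replicate 2, and SMC6 had 9.38 and 7.28. NSMCE2, the SUMO ligase subunit, was the highest of the 6 SMC5/6 genes with 27.5 and 22.9 TPM, and NSMCE3 was the lowest with 6.56 and 5.97. All 6 were detected, with a median of 16.8 ± 1.39 TPM.

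Germline members of the SMC and kleisin families were at or near the limit of detection. Neither SMC1B nor RAD21L1 reached 1 CPM in both libraries. The meiotic cohesin gene SMC1B had 42 and 35 reads, which passed 1 CPM in replicate 1 only, and the kleisin RAD21L1 had 1 and 0 reads, below the floor of 3 reads (0.0725 CPM in replicate 1 and 0.0806 in replicate 2). STAG3, at 52 and 40 reads, was the lowest detected gene of the list and EID3, at 98 and 67 reads, the highest. The meiotic kleisin REC8, named after its value was seen, had 51 reads in replicate 1 and 101 in replicate 2 and was the 1 gene of the list called between the libraries (log2 difference 1.15, binomial adjusted p = 1.64e-05). Among the 11 genes of cohesin loading, release and acetylation, PTTG1, the securin gene, was the highest with 174 and 165 TPM and the loader subunit MAU2 the lowest with 5.9 and 5.83. In the S-phase list PCNA was the highest with 291 and 234 TPM, and TYMS the lowest with 6.69 and 7.79.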
